A study of Ceratopteris richardii with 6 samples.

Results

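In sporophyte seedlings of the fern Ceratopteris richardii, 227 assembled genes moved to one side of mock after 24 h of the synthetic auxin 2,4-D and to the other side after 48 h. They are 103 genes that were raised at 24 h and lowered at 48 h, and 124 genes that were lowered at 24 h and raised at 48 h, out of 88641 genes listed. Members were chosen on TPM, the share of a library's transcripts that a gene holds, on a fixed scale, after correction for its length. The highest of the 3 group means had to be at least 10 and under 1000 TPM, which 15731 genes met. The mean of log2(TPM + 1) then had to differ from mock by at least 0.5 in one direction at 24 h and by at least 0.5 in the other direction at 48 h. Because the rule uses both comparisons with mock, and the difference between the treatment times follows from them, the changes of these genes are given as a description. No test independent of the rule could be made on them.

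The plants were whole seedlings of the wild type RNWT1, grown from spores for 30 days, with 2 libraries in each of 3 groups. These were mock, 2 µM 2,4-D for 24 h and 2 µM 2,4-D for 48 h. The mock columns are named as 0 days, and no untreated seedlings of 24 h or 48 h were analysed here, so that 2,4-D, time on the new medium and plant age cannot be told apart. The labels do not tell whether replicate libraries stem from separate cultures. Read depth is unknown, since TPM keep none. The median gene of the 32225 tested differed from mock by 0.10 at 24 h and by -0.08 at 48 h on the log2 scale.

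Auxin acts on transcription through receptors that mark the Aux/IAA repressors for breakdown and so free the ARF transcription factors to act on their targets. In Arabidopsis, genes for Aux/IAA repressors and for GH3 enzymes, which conjugate auxin to amino acids, are themselves auxin targets and feed back on the response. 2,4-D is cleared more slowly by plants than the natural auxin indole-3-acetic acid and is used to hold an auxin response for longer. The deposited table gives Trinity assembly IDs without gene names, and 0 of them matched the 36816 genes of the RefSeq table for assembly C.richardii_v2. The members therefore cannot be assigned to these families, and the labelled tissue could not be checked against marker genes. In whole seedlings, fewer cells of a type and less RNA per cell cannot be told apart.

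Each side of the rule is common taken alone. Among the 15731 genes in the abundance range, 9.24% were at least 0.5 higher than mock at 24 h and 17.6% at least 0.5 lower at 48 h. At least 0.5 lower at 24 h were 5.37%, and at least 0.5 higher at 48 h were 14.3%. The number in each direction depended on the scaling between libraries. After trimmed-mean rescaling, which centres the log ratios between libraries near 0, 62 genes were raised then lowered and 190 lowered then raised. Quantile normalization gave 72 and 174. All 62 of the rescaled raised-then-lowered genes were among the 103, and all 124 lowered-then-raised genes were among the 190. The rescaling lowers differences at 24 h and raises those at 48 h, so this nesting largely follows from it.

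**Figure D1:**
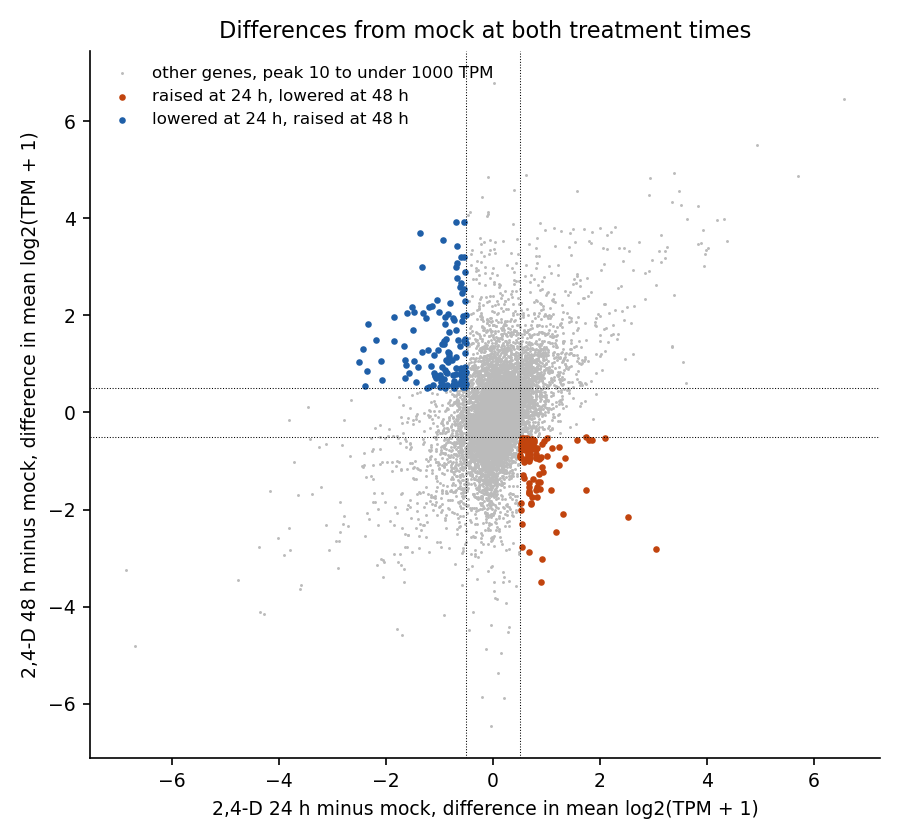
Difference from mock in mean log2(TPM + 1) at 24 h (x axis) and at 48 h (y axis) for the 15731 genes with a highest group mean of 10 to under 1000 TPM; each point is a gene and dotted lines mark 0.5 on each side. The 103 genes raised at 24 h and lowered at 48 h lie at the lower right and the 124 genes lowered at 24 h and raised at 48 h at the upper left.

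In the genes raised then lowered, the 24 h step was modest and the 48 h step reached further. Their differences from mock at 24 h had a median of 0.70 and ran between 0.51 and 3.04 on the log2 scale. At 48 h the median was -0.86, with a range of -3.50 to -0.51. Medians over all genes in the range were 0.08 at 24 h and -0.08 at 48 h. Their quartiles were -0.07 and 0.23 at 24 h and -0.35 and 0.20 at 48 h. The range as a whole thus also spread wider at 48 h. Differences of at least 1, or 2-fold on the log2(TPM + 1) scale used for all fold limits here, were found in 17 of the 103 genes at 24 h and in 35 at 48 h, and in 7 at both times. The 48 h difference was the larger in 64 of the 103 (62.1%). It exceeded the 24 h difference by more than 0.5 in 27, while the reverse held in 6. The matching shares over the range were not counted.

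SHA_TRINITY_DN13101_c0_g1 stood farthest from mock on both sides by the smaller of its 2 differences. It had 30.3 and 26.3 TPM in mock, 262 and 219 TPM at 24 h, and 2.52 and 3.93 TPM at 48 h. The groups did not overlap, and the mean was 8.49-fold higher than mock at 24 h and 8.77-fold lower at 48 h. The log2 differences were 3.04 ± 0.17 and -2.81 ± 0.17 (standard errors from the limma fit, 2 libraries per group). Between the treatment times its mean was 74.4-fold lower at 48 h than at 24 h.

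SHA_TRINITY_DN3273_c0_g1 was next by both criteria. It stood at 61.6 and 47.9 TPM in mock, 327 and 309.9 TPM at 24 h, and 10.9 and 11.9 TPM at 48 h. Its differences were 2.53 ± 0.11 at 24 h and -2.16 ± 0.11 at 48 h, again without overlap of libraries. These 2 genes were the only members of either direction that lay at least 4-fold from mock at both times.

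The genes with the largest 48 h differences had a smaller step at 24 h. LE_TRINITY_DN32694_c0_g1 had 98.7 and 103 TPM in mock, 176 and 202 TPM at 24 h, and 7.96 and 7.98 TPM at 48 h. It was 1.88-fold higher than mock at 24 h and 12.6-fold lower at 48 h, with log2 differences of 0.90 ± 0.08 and -3.50 ± 0.08. RO_TRINITY_DN6942_c0_g1 had 26.2 and 28.8 TPM in mock, 48.9 and 56.7 TPM at 24 h, and 2.53 and 2.47 TPM at 48 h. Its course was alike in shape at a lower level, with differences of 0.92 ± 0.10 and -3.02 ± 0.10.

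The genes lowered then raised moved over a wider span. Their differences from mock had a median of -0.85 at 24 h, within a range of -2.50 to -0.50, and a median of 1.12 at 48 h, within a range of 0.51 to 3.92. At least 2-fold differences were found in 42 of the 124 genes at 24 h, in 69 at 48 h and in 26 at both times. The 2 treatment times lay at least 4-fold apart in 70 of these genes (56.5%), against 38 of the 103 in the other direction (36.9%). They lay at least 8-fold apart in 36 and in 9. Shares of the range at these limits were not counted, and its quartiles of 48 h minus 24 h were -0.42 and 0.09. The 48 h difference was the larger in 77 of the 124 (62.1%), the same share as in the other direction. It exceeded the 24 h difference by more than 0.5 in 44, while the reverse held in 15. These shares too were not counted over the range.

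By the smaller difference, the leading genes of this direction were low in mock and near absent at 24 h. LA_TRINITY_DN11553_c0_g1 had 6.26 and 5.72 TPM in mock, 0.57 and 0.23 TPM at 24 h, and 30.7 and 18.5 TPM at 48 h. Its log2 differences were -2.33 ± 0.24 and 1.83 ± 0.24, and with a pseudocount of 5 the 24 h difference was -1.03. LE_TRINITY_DN552_c0_g1 had 1.90 and 9.53 TPM in mock, 0.75 and 0.34 TPM at 24 h, and 26.3 and 16.3 TPM at 48 h. Its mock libraries lay far apart, and its differences were -1.85 ± 0.54 at 24 h and 1.98 ± 0.54 at 48 h. Without mock replicate 1 they were -2.78 and 1.05, and without mock replicate 2 the 24 h difference was -0.92. With a pseudocount of 5 the 24 h difference was -0.85.

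The largest differences at 24 h came from genes with peaks of 127 and 101 TPM, above the median peak of 26.8 TPM in the range. RO_TRINITY_DN1366_c0_g1 had 81.8 and 44.0 TPM in mock, 8.41 and 11.3 TPM at 24 h, and 149 and 105 TPM at 48 h. Its mean was 6.38-fold lower than mock at 24 h and 2.02-fold higher at 48 h, with log2 differences of -2.50 ± 0.29 and 1.05 ± 0.29. The 48 h difference was 0.61 without mock replicate 2. LA_TRINITY_DN10176_c1_g1 had 36.5 and 44.6 TPM in mock, 7.02 and 6.40 TPM at 24 h, and 107 and 95.8 TPM at 48 h. With closer replicates, its differences were -2.42 ± 0.11 and 1.303 ± 0.11.

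The 2 genes named for the largest differences at 48 h in this direction had means below 5 TPM in mock and at 24 h. RT_TRINITY_DN83709_c0_g1 had 4.40 and 3.15 TPM in mock, 2.27 and 1.62 TPM at 24 h, and 69.6 and 72.1 TPM at 48 h. RO_TRINITY_DN8953_c0_g1 had 2.53 and 2.00 TPM in mock, 1.39 and 1.10 TPM at 24 h, and 48.8 and 47.6 TPM at 48 h. At 48 h their means were 18.8-fold and 21.3-fold higher than mock. At 24 h they differed from mock by -0.69 ± 0.16 and -0.54 ± 0.13 on the log2 scale, and with a pseudocount of 5 by -0.34 and -0.22. The libraries of the 3 groups did not overlap for any of the 10 genes named, a condition of the rule that named them.

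**Figure D2:**
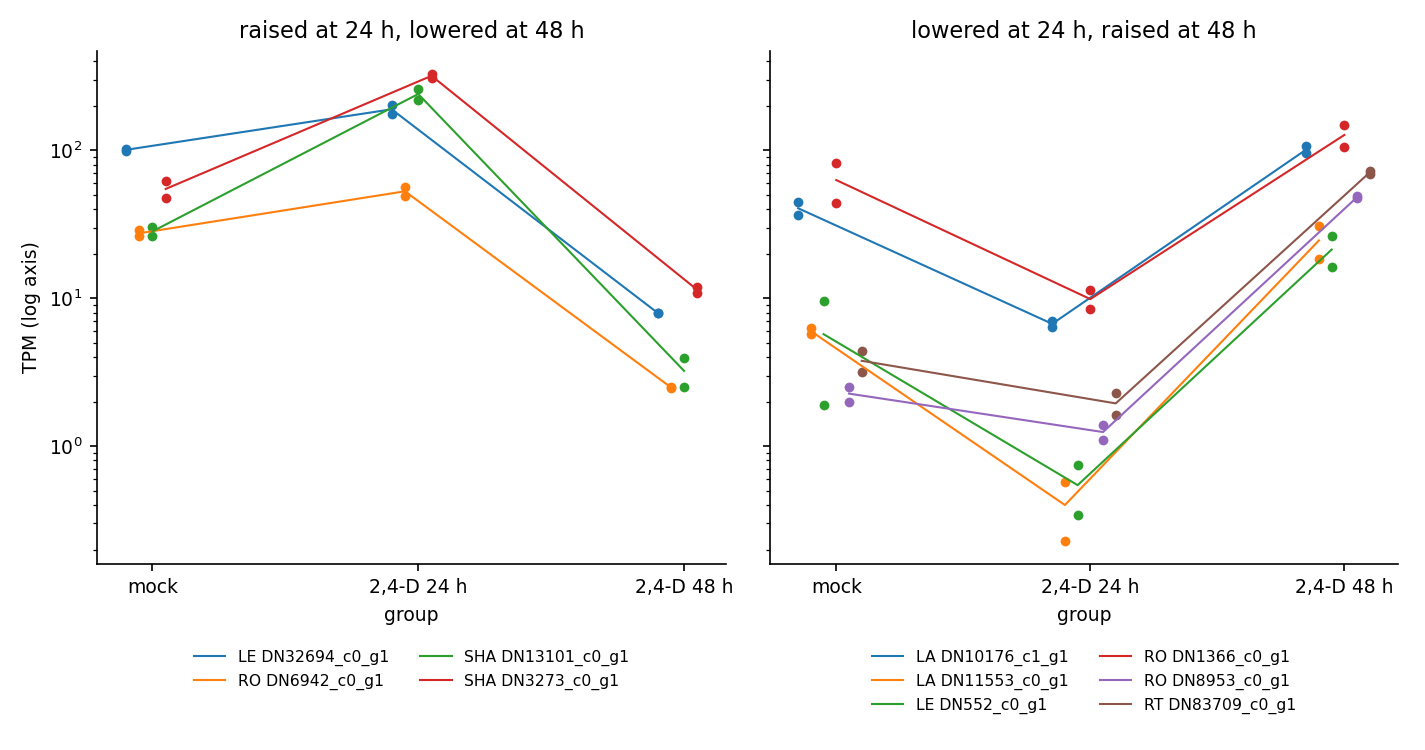
TPM (log axis) of the 10 named genes in mock, at 24 h and at 48 h of 2,4-D; points are single libraries and lines join the group means. The 4 genes on the left peak at 24 h and are lowest at 48 h, and the 6 genes on the right are lowest at 24 h and peak at 48 h, with the widest gap between mock libraries in LE_TRINITY_DN552_c0_g1.

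Both libraries of each treatment time lay outside the mock libraries, on opposite sides at the 2 times, in 101 of the 103 genes raised then lowered, and 15.6% of all genes in the range met this condition. For the genes lowered then raised the count was 121 of 124, against 4.64% of the range. A limma fit over the 32225 genes that reached 1 TPM in 2 or more libraries, which all 227 members passed, called opposite directions at both times for 88 of the 103 and 111 of the 124 at an adjusted p of 0.05. Of all tested genes, 1.06% and 0.788% were called in these ways. The rule used the same libraries and comparisons, which largely fixes both kinds of count, so they describe the members and support nothing further. The 88 became 52 without 24 h replicate 2 and 23 with no filter on low genes. With no filter the 111 became 42, and 113 and 66 of all 88641 genes were called in these ways.

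**Figure D3:**
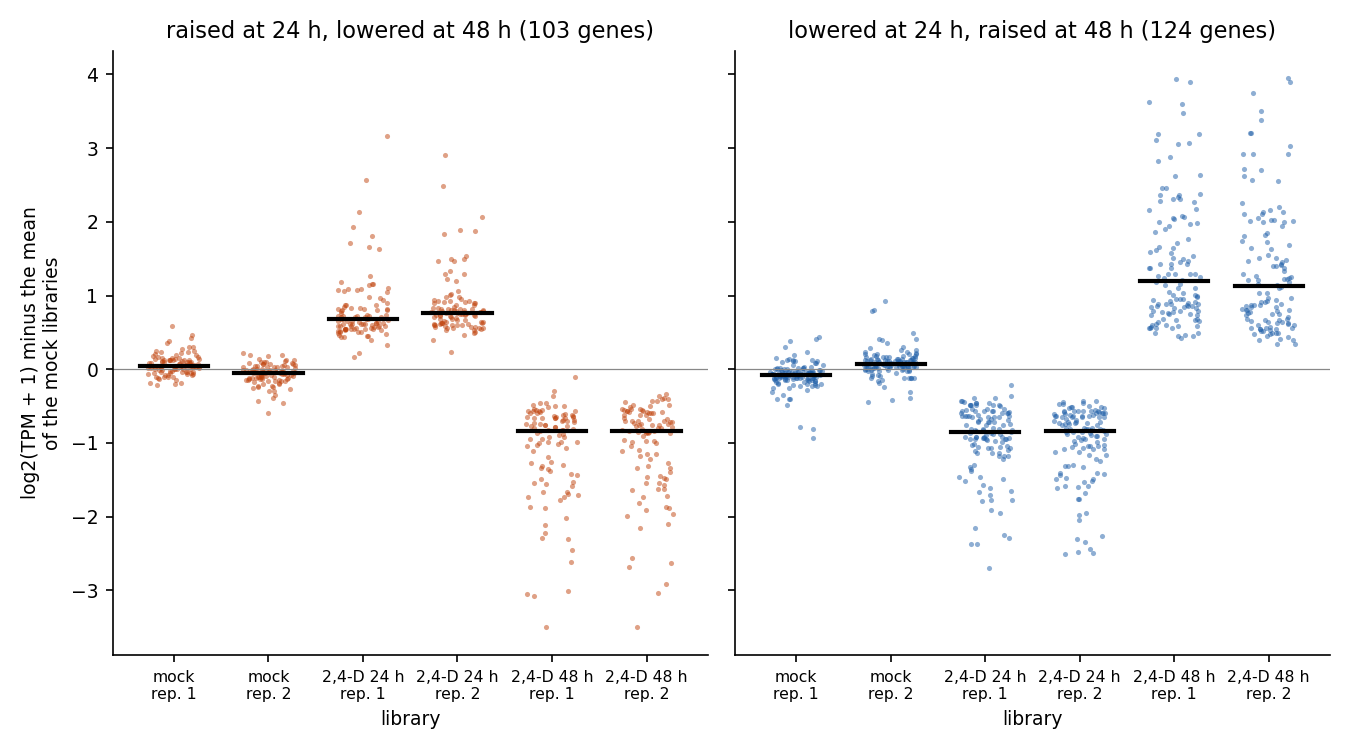
Level of every member in each of the 6 libraries, as log2(TPM + 1) minus the mean of the mock libraries; points are genes and black lines are medians. On the left, genes raised at 24 h and lowered at 48 h; on the right, genes lowered at 24 h and raised at 48 h, whose 48 h values spread up to 3.92 above mock on average.

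The rule did not compute the difference between the 2 libraries of a group, but it averaged the same libraries. A limit on means of 2 libraries can favour genes whose libraries lie apart. The values below are therefore a description that is not independent of the rule. In mock, the median absolute difference between the libraries was 0.17 in genes raised then lowered and 0.21 in genes lowered then raised, against 0.10 in the range (log2 scale). At 24 h it was 0.15 and 0.12, against 0.08, and at 48 h it was 0.165 and 0.094, against 0.085. The values were thus higher in members than in the range, by little in the genes lowered then raised at 48 h. Genes in the range that lay at least 0.5 from mock at 24 h without being members had 0.17 in mock, 0.11 in the 24 h and 0.12 in the 48 h group. Those at least 0.5 from mock at 48 h had 0.13, 0.10 and 0.10. Members were not above these changed genes throughout, and the genes lowered then raised were below both sets at 48 h.

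The order of the mock libraries also went with the direction of reversal. Mock replicate 1 was above mock replicate 2 in 73 of the 103 genes raised then lowered (70.9%) and in 29 of the 124 genes lowered then raised (23.4%), against 47.8% of the range. At 24 h, replicate 1 was above replicate 2 in 32.0% and 51.6%, against 57.9% of the range. At 48 h the shares were 43.7% and 69.4%, against 61.5%. What part this difference between the mock libraries has in the reversals was not tested. Without mock replicate 1 the rule found 103 genes raised then lowered and 139 lowered then raised, of which 84 and 103 were among the members. Without mock replicate 2 it found 111 and 119, of which 81 and 99 were members.

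**Figure D4:**
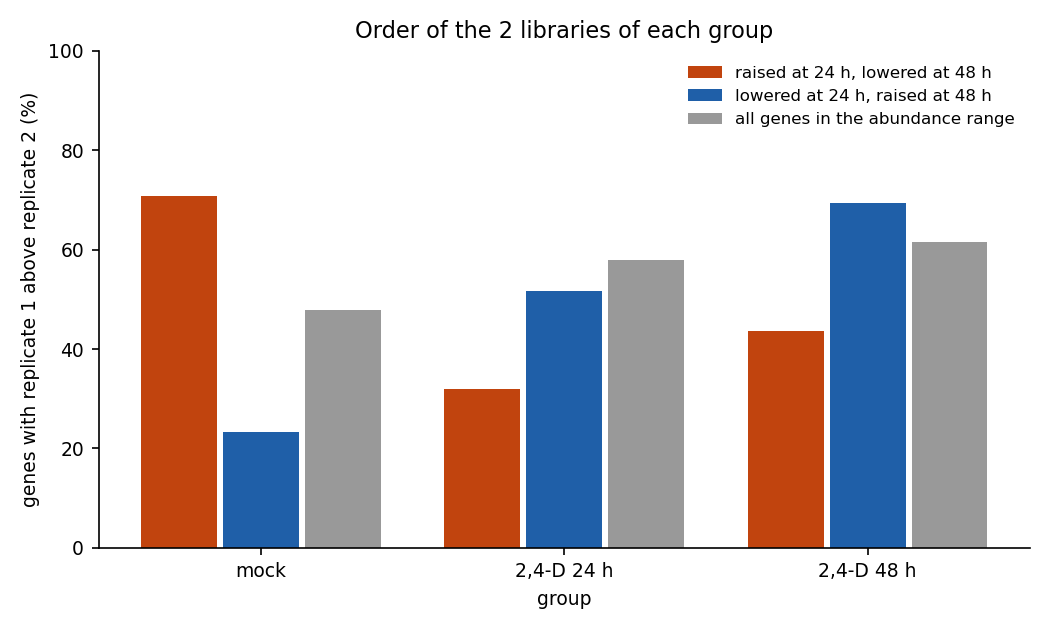
Share of genes (%) in which replicate 1 was above replicate 2, for mock, 24 h and 48 h, in the genes raised then lowered (103), lowered then raised (124) and all genes in the abundance range (15731). The widest gap between the directions is in mock, at 70.9% and 23.4%.

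Summed over members, the genes raised then lowered held 5386 and 4807 TPM in the mock libraries, 8905 and 9487 TPM at 24 h, and 2466 and 2679 TPM at 48 h. The 5 most abundant of them made up between 35.1% and 43.5% of these sums. Their sum at 24 h was 1.80 times that of mock, and at 48 h 0.505 times. The genes lowered then raised held 4591 and 5050 TPM in mock, 2629 and 2495 TPM at 24 h, and 12811 and 12159 TPM at 48 h. At 48 h they thus made up 1.28% and 1.22% of all TPM, 2.59 times the sum in mock, while at 24 h the ratio was 0.532. Trimmed-mean rescaling gave ratios of 1.66 and 0.541 for the first direction and 0.489 and 2.77 for the second.

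The 2 directions differed in abundance. The highest group mean had a median of 24.1 TPM in genes raised then lowered and 45.5 TPM in genes lowered then raised, against 26.8 TPM in the range. A peak of at least 100 TPM was reached by 23 (22.3%) and 39 (31.5%), against 12.5% of the range. Raised-then-lowered genes were 0.697% of genes with a peak of 10 to under 20 TPM and 0.598% of those at 20 to under 50 TPM. They were 0.257% of those at 50 to under 100 TPM and 1.17% of those at 100 TPM or more. Lowered-then-raised genes were 0.470%, 0.651%, 0.900% and 1.98% of the same classes. Because the group means also set the peak, these shares are a description.

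Gene IDs begin with 1 of 5 prefixes (SHA, RT, RO, LE or LA) that no source used here explains. Of the 103 genes raised then lowered, 42 had the prefix RO (40.8%), 22 LE (21.4%), 17 RT, 16 SHA and 6 LA (5.83%). In the abundance range, RO made up 20.01%, LE 15.8% and LA 24.5%. RO was 24.2% of the 1454 genes at least 0.5 higher at 24 h and 19.9% of the 2770 genes at least 0.5 lower at 48 h. In every 100 genes of a prefix, 1.33 RO genes were raised then lowered, against 0.885 of LE, 0.552 of RT, 0.507 of SHA and 0.155 of LA. The RO share was 40.3% after either rescaling, and between 33.9% and 39.6% when members were chosen again without each library in turn.

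The genes lowered then raised were spread more evenly, with 33 LE (26.6%), 26 RT, 24 LA (19.4%), 23 RO (18.5%) and 18 SHA genes. LE was above its 15.8% of the range. In every 100 genes of a prefix, 1.33 LE genes were lowered then raised, against 0.845 of RT, 0.731 of RO, 0.621 of LA and 0.570 of SHA. LE was 20% of the 845 genes at least 0.5 lower at 24 h and 16.7% of the 2246 genes at least 0.5 higher at 48 h. Within this direction, LA members peaked at a median of 108 TPM, against 30.6 to 56.3 TPM for the other prefixes. SHA members had the smallest median difference at 48 h, 0.85, and LA members the largest, 1.34. No test was made on prefixes.

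**Figure D5:**
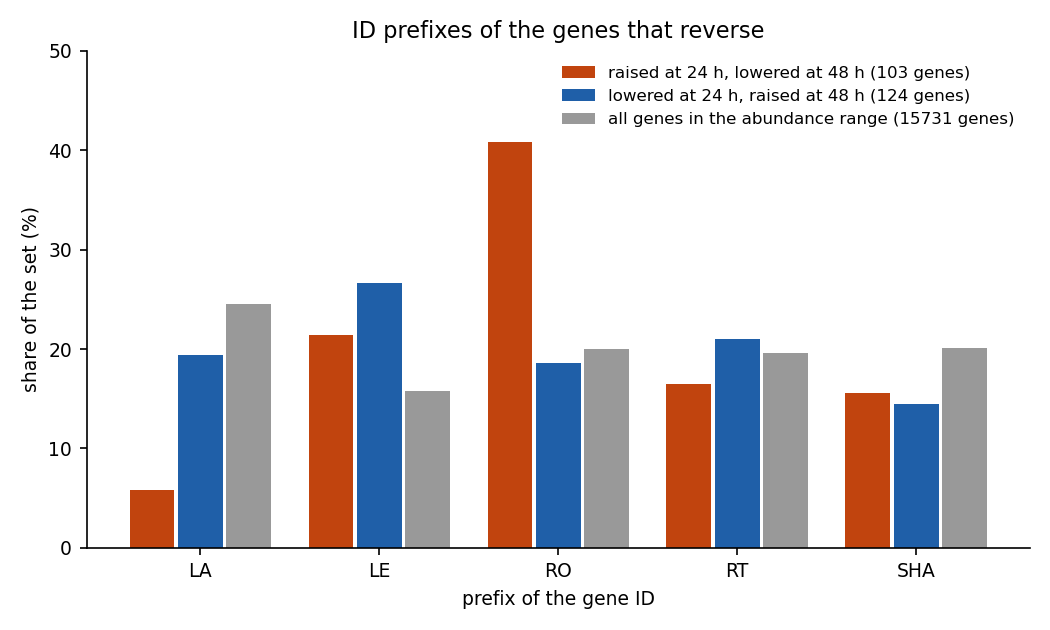
Share (%) of each ID prefix among the genes raised then lowered (103), the genes lowered then raised (124) and all genes in the abundance range (15731). RO makes up 40.8% of the genes raised then lowered and 20.01% of the range, and LA 5.83% against 24.5%.

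In Trinity IDs, everything before the last g number names an assembly component, whose genes may draw on the same reads. Of the genes raised then lowered, 16 (15.5%) had another listed gene in their component, as had 14 (11.3%) of those lowered then raised, against 10.4% of the range. When the TPM of a component were summed, 8 of the 16 and 7 of the 14 still differed from mock by 0.5 on opposite sides. With members that are alone in their component, this held for 95 of the 103 and 117 of the 124. Members alone in their component meet this by the rule itself, so only the 8 of 16 and 7 of 14 could bear on partners. Several of these do not, because the partner was absent or nearly so and the sum is close to the member itself. For some of the 8 the partner held 0 TPM in every group, and for others its group means were at most 0.295 TPM. For some of the 7 they were at most 0.22 TPM. The 7 also include both members of a shared component. The 95 became 59 after trimmed-mean rescaling, where only 62 of the 103 members met the rule themselves.

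The sum could follow an abundant partner instead of the member. For 1 RO member that peaked at 165 TPM, the partner had means of 195 TPM in mock, 213 TPM at 24 h and 228 TPM at 48 h. The summed component then differed from mock by 0.42 at 24 h and -0.08 at 48 h, against 0.91 and -1.13 for the member alone. Only 1 component held 2 members, both LA genes lowered then raised, and their sum differed by -0.97 at 24 h and 1.49 at 48 h. The number of components with members of both directions was 0. No named gene shared its component.

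The limits of the rule cut through a continuum. Just inside, the smaller difference was 0.506, 0.511 and 0.512 in genes raised then lowered, and just outside it was 0.497, 0.492 and 0.490. For genes lowered then raised the values were 0.503, 0.505 and 0.505 inside, and 0.498, 0.492 and 0.491 outside. The smaller difference was under 0.6 in 39 of the 103 and 46 of the 124, and another 83 and 61 genes in the abundance range had it between 0.4 and 0.5. The lowest peaks inside were 10.06 and 10.04 TPM, with 9.96 and 9.68 TPM just outside.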

How the data were processed

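Whole seedlings were measured by RNA-seq, with 2 libraries per group. The authors deposited TPM per assembled gene in 1 table, rounded to hundredths. Per the submitters' processing notes, the tools were RSEM 1.3.2, STAR 2.7.2b, Bowtie2 2.3.4.3 and Trim Galore 0.5.0, listed with no role or order. The depth is unknown. Columns were assigned by the treatment time and number in their names, those of 0 days going to mock, the one group without a treatment time.

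Values were transformed as log2(TPM + 1), which understates changes of low genes. The standard errors and calls come from limma 3.58.1 (R 4.3.3; mean-variance trend), fitted to all 6 libraries and the 32225 genes that reached 1 TPM in 2 or more libraries, with two-sided tests and Benjamini-Hochberg adjustment within each comparison at 0.05. P-values reflect the spread of these libraries alone, and that may be technical. The fit and the rule were tested on simulated data. In each direction, among members without overlap of libraries, the genes named were the 2 with the largest smaller difference from mock, the 2 with the largest difference at 24 h and the 2 with the largest at 48 h. Members, lists and tests were chosen with earlier results of these data known. Alternatives covered pseudocounts, limits, scaling, the fit and each library left out.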

Additional observations from a re-analysis of the deposited data

Results flagged for a closer look

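All 10 named genes moved in opposite directions at the 2 treatment times, with every library of one time above mock and every library of the other below. They were named for this, so the difference was not tested. On the log2 scale, 48 h minus 24 h gave -5.85 for SHA_TRINITY_DN13101_c0_g1, -4.69 for SHA_TRINITY_DN3273_c0_g1, -4.403 for LE_TRINITY_DN32694_c0_g1 and -3.94 for RO_TRINITY_DN6942_c0_g1. In the other direction it gave 4.62 for RT_TRINITY_DN83709_c0_g1, 4.46 for RO_TRINITY_DN8953_c0_g1, 4.16 for LA_TRINITY_DN11553_c0_g1, 3.83 for LE_TRINITY_DN552_c0_g1, 3.73 for LA_TRINITY_DN10176_c1_g1 and 3.55 for RO_TRINITY_DN1366_c0_g1. The same separation of single libraries was found in 101 of the genes raised then lowered and in 121 of those lowered then raised, against 15.6% and 4.64% of the range. The rule largely fixes these counts, which were also untested.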

How the results depend on the processing

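Against 103 genes raised then lowered and 124 lowered then raised, a pseudocount of 5 gave 62 and 75, a difference of at least 0.75 gave 27 and 55, a difference of at least 1 gave 7 and 26, and trimmed-mean rescaling gave 62 and 190. For the first direction a peak of at least 5 TPM gave 161 genes and one of at least 20 TPM gave 63. Stricter limits lower the counts by construction. Trimmed-mean rescaling divided the 24 h libraries by 1.10 and 1.06, the 48 h libraries by 0.949 and 0.911, and mock by 0.993 and 0.998. That lowers differences from mock at 24 h and raises those at 48 h. It thereby removes genes from the first direction and adds others to the second. Why the libraries differed in scale was not tested. Leaving out each library gave 103 to 125 and 115 to 157 genes, and 57 and 75 of the members were found each time. The limma calls in opposite directions, 88 and 111, became 23 and 42 with no filter, where 88641 genes are tested, and ranged over 52 to 81 and 90 to 98 without each library. Members whose summed component reversed numbered 59 after trimmed-mean rescaling, against 95, but only 62 of the 103 members then met the rule themselves. Members with libraries apart on both sides of mock numbered 99 to 103 and 121 to 124 under the rescalings and without each library. Leaving out a library only loosens this condition, so the counts without each library could not fall below 101 and 121. With the replicate number as a block, limma called 87 and 109 members. Deviations of same-numbered libraries from their group means correlated weakly (r of 0.052, -0.0085 and 0.030 across genes), so the libraries are taken to share only a number. The 200 differences from mock of the named genes that were recomputed kept their sign. The named genes were chosen without overlap of libraries, so pseudocounts and left-out libraries could not change a sign. Leaving out a library of one treatment time also leaves the difference at the other time untouched. The trimmed-mean factors lie too close to 1 to turn the sign of even the smallest named difference, -0.54. That difference was -0.61 after trimmed-mean rescaling and -0.66 after quantile normalization. The kept signs therefore say little about stability. Depth is unknown, so no floor can be given for the low genes.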

Other observations

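Above the abundance range, 4 genes of at least 1000 TPM met both differences, all of them lowered at 24 h and raised at 48 h. The most abundant had 330 and 294 TPM in mock, 221 and 219 TPM at 24 h, and 3483 and 3581 TPM at 48 h, and its 24 h difference of -0.50 only just met the limit. The next had 359 and 366 TPM in mock, 238 and 251 TPM at 24 h, and 1632 and 1624 TPM at 48 h. Another had 276 and 759 TPM in mock, 64.6 and 54.4 TPM at 24 h, and 1658 and 1262 TPM at 48 h, with mock libraries far apart. Below 10 TPM the balance was the other way, with 136 genes raised then lowered and 42 lowered then raised. These counts were made without rescaling and without a share of all genes below 10 TPM. In the abundance range, trimmed-mean rescaling alone gave 62 and 190 genes. How far the balance among these low genes depends on the scaling was not tested.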
